A study of Sus scrofa with 12 samples.

Results

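The myocyte enhancer factor 2 (MEF2) genes MEF2A, MEF2B, MEF2C and MEF2D were examined for chromatin accessibility in the muscle of 2 pig breeds. Every deposited ATAC-seq peak with its midpoint inside 1 of the 4 gene bodies, or within 50 kb of it, was taken as a member. This rule used positions in the Sscrofa11.1 genome and no read counts. It gave 168 regions out of the 140081 regions of the genome. Of these, 49 belonged to MEF2A, 16 to MEF2B, 71 to MEF2C and 32 to MEF2D.

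In ATAC-seq a transposase inserts sequencing adapters into open chromatin, and the number of reads over a region measures how accessible it is. The tissue was the longissimus dorsi, a muscle of the back, from 3 Luchuan and 3 Duroc boars killed at 180 days of age after the same feeding and an overnight fast. Luchuan is a Chinese breed with much fat, and Duroc is a lean breed. The compared table holds 1 read count per region and breed, so the single boars cannot be seen, the spread between animals is unknown, and no test between breeds was possible.

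MEF2 proteins bind DNA through a MADS box and a neighbouring MEF2 domain and switch on genes of differentiating and adult muscle. They act together with the myogenic factors of the MyoD family. Class IIa histone deacetylases hold them in check, and calcium signals through calcineurin and calmodulin-dependent kinases relieve that check. In muscle, MEF2C acts early in differentiation and in the upkeep of the sarcomere, MEF2A and MEF2D are expressed in differentiated fibres, and MEF2B is better known from B lymphocytes.

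Over all regions, 13746432 Luchuan and 20760292 Duroc reads were counted, with a median of 38 and 61 reads per region. The Luchuan counts were therefore multiplied by 1.48, the factor at which the median region open in both breeds showed no difference. A region of equal accessibility thus held 1.48 Duroc reads for each Luchuan read. The log2 ratio below is that of scaled Luchuan over Duroc reads, with 1 added to each count, and values below 0 mean more reads in Duroc. A range in brackets with a ratio is its exact 95% interval (Clopper-Pearson), which covers counting error only and no spread between boars. The interval treats each read as independent, so repeated reads of a molecule, if left in, would make it too narrow. All 10 muscle fibre markers examined had open regions, with 59.2 to 536.0 Duroc and 29.0 to 341.0 Luchuan reads per kb of gene, unscaled. The leukocyte markers PTPRC and CD3E had 0.718 and 0.713 Duroc and 0.228 and 1.15 Luchuan reads per kb of gene. The adipocyte markers reached at most 5.61 and 4.8, the endothelial markers 8.85 and 5.35, and CDH5 had no region. Markers of other organs were open too, such as TNNI3 of heart with 86.6 and 47.3 reads per kb of gene and APOA1 of liver with 77.9 and 50.3, while ALB of liver had no region. The part of cell composition in the results was not tested, and in whole tissue fewer nuclei of a cell type cannot be told apart from less open chromatin per nucleus.

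MEF2A and MEF2C had fewer Luchuan than Duroc reads over most of their length after scaling, whereas MEF2B and MEF2D were close to equal. The 49 regions of MEF2A held 933 Luchuan and 2393 Duroc reads in sum, a log2 ratio of -0.80 (-0.91 to -0.69), or 1.74-fold more in Duroc. The 71 regions of MEF2C held 5065 and 9050 reads, a log2 ratio of -0.28 (-0.33 to -0.23), or 1.21-fold more in Duroc. For MEF2D the sums were 5539 and 8430 reads with a log2 ratio of -0.04 (-0.09 to 0.00), and for MEF2B they were 1825 and 2830 reads with -0.07 (-0.16 to 0.01). The intervals of MEF2B and MEF2D reached 0, and their upper and lower bounds leave room only for small differences in the summed reads of these libraries. The muscle fibre markers had low ratios too, computed from their summed reads after scaling, with 9 of 10 below 0, a median of -0.33 and a range of -0.47 at CKM and MYH2 to 0.04 at TTN. These marker sums took regions within 2 kb of each gene, a narrower window than the 50 kb of the MEF2 sums. Within 2 kb, the summed ratios were -0.82 at MEF2A and -0.28 at MEF2C. In both windows the summed ratio of MEF2A was below the marker range and that of MEF2C within it. The part of what the markers share with them was not tested.

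A region was called when the ratio was 2-fold or more and its interval excluded 0. Over the genome this call was met by 4.99% of regions in the Duroc direction and by 6.38% in the Luchuan direction. Of the 168 MEF2 regions, 133 had a ratio below 0 (79.2%), 21 were called higher in Duroc and 1 higher in Luchuan. All 22 calls fell on MEF2A and MEF2C, with 10 of 49 regions higher in Duroc at MEF2A (20.4%) and 11 of 71 at MEF2C (15.5%). At any fold, the interval lay below 0 for 23 regions of MEF2A, 23 of MEF2C, 1 of MEF2D and none of MEF2B, beside 15.7% over the genome. It lay above 0 for 1 region of MEF2C and 1 of MEF2D, beside 13.4% over the genome.

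**Figure D1:**
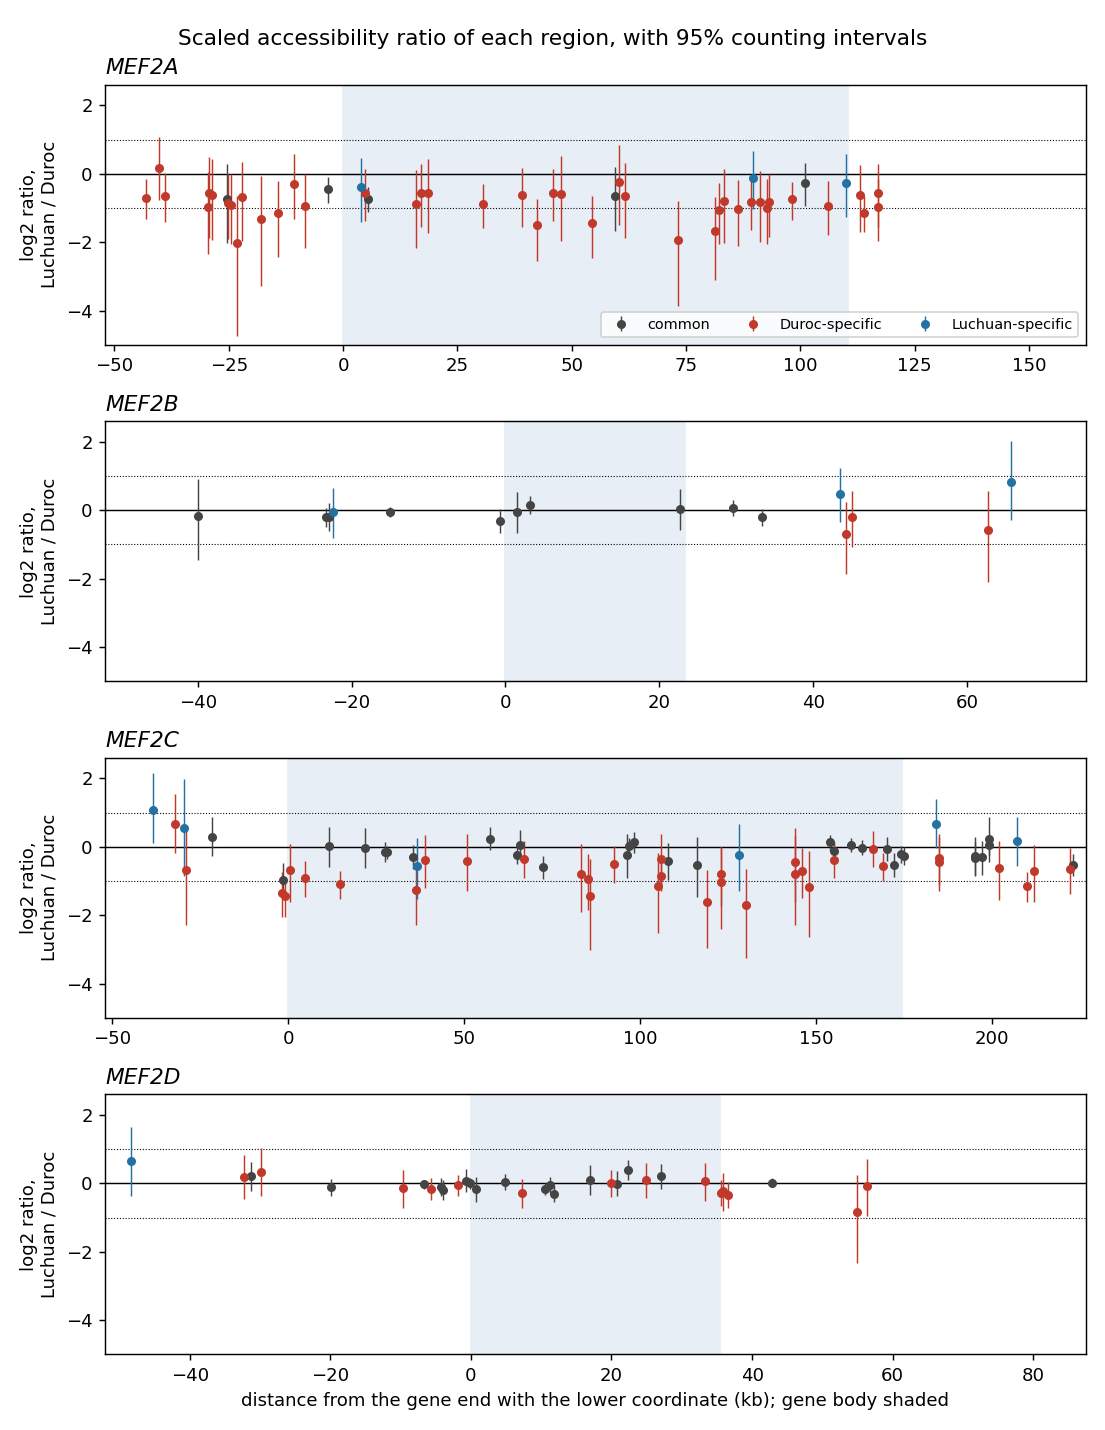
Scaled log2 ratio of Luchuan over Duroc reads (y axis) for each of the 168 regions along MEF2A, MEF2B, MEF2C and MEF2D, with distance from the gene end of lower coordinate in kb (x axis) and the gene body shaded. Bars are 95% counting intervals, colours give the peak class, and dotted lines mark 2-fold. Of the MEF2A points, 48 of 49 lie below 0, and MEF2D points lie around 0.

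MEF2A (gene ID 100037273), the family member widely expressed in adult muscle, covers chr1:138398270-138508639 of Sscrofa11.1, a body of 110.4 kb. No other protein-coding gene lies within 50 kb of it. The median log2 ratio of its regions was -0.74, with an interquartile range of -0.96 to -0.56, whereas all regions of the genome had a median of -0.01 and a range of -0.34 to 0.32. All but 1 of the 49 regions were below 0, beside 50.8% of all regions. The exception, chr1:138358043-138358197, had 19 Luchuan and 25 Duroc reads and a ratio of 0.18 (-0.78 to 1.08). It was singled out after its values were seen.

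The low ratio of MEF2A extended over the gene and both flanks. The 29 regions inside the body had a median of -0.75 and were all below 0. The 16 regions on the side of lower coordinates had a median of -0.72, and the 4 regions on the other side had a median of -0.79. These medians differed from each other by less than the interquartile range of the gene's regions.

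The strongest region of MEF2A, by reads and by reads per kb, was chr1:138403366-138403929, which lies inside the body. It was a peak in both breeds, with 86 Luchuan and 213 Duroc reads and a log2 ratio of -0.74 (-1.13 to -0.38). Even this region, with 530 reads per kb of both breeds together, stood only at the 65.3rd percentile of the genome. No region lay within 2 kb of the end of lower coordinate. At the other end, chr1:138507716-138507865 held 17 Luchuan and 31 Duroc reads, a ratio of -0.27 (-1.25 to 0.59), and was not told apart from equality at this depth.

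Of the 10 called regions of MEF2A, 6 lay inside the body, 3 on the side of lower coordinates and 1 on the other side. The called region with the most reads was chr1:138512056-138512480, outside the body, with 40 Luchuan and 132 Duroc reads and a ratio of -1.14 (-1.71 to -0.64). Inside the body, chr1:138440669-138440920 held 14 and 62 reads and had the lowest ratio of the regions with 50 reads or more, -1.51 (-2.54 to -0.73). Both had intervals far from 0, although the Luchuan counts were small.

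A group of 4 called regions lay close together inside the body. In chr1:138471457-138471606 there were 5 Luchuan and 33 Duroc reads (-1.94, -3.88 to -0.80), and in chr1:138479579-138479782 there were 8 and 41 (-1.66, -3.10 to -0.68). The neighbouring chr1:138480488-138480725 had 15 and 48 reads (-1.05, -2.06 to -0.26), and chr1:138484626-138484781 had 13 and 41 (-1.02, -2.12 to -0.17). The width of these intervals shows how little the single regions resolve, and the size of each difference is uncertain by more than 2-fold. A further called region inside the body, chr1:138452688-138452938, had 14 and 59 reads and a ratio of -1.44 (-2.47 to -0.66).

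The 3 called regions on the side of lower coordinates were weaker still. They were chr1:138375047-138375196 with 3 Luchuan and 23 Duroc reads, chr1:138380214-138380363 with 5 and 21, and chr1:138384029-138384201 with 10 and 35. Their ratios were -2.02 (-4.76 to -0.65), -1.31 (-3.27 to -0.06) and -1.15 (-2.43 to -0.20). The intervals of all 3 excluded 0, that of chr1:138380214-138380363 only just. The highest ratio among MEF2A regions of 50 reads or more was -0.13 (-1.04 to 0.68), at chr1:138487840-138487991, with 20 and 33 reads. This region was not resolved from equality.

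**Figure D2:**
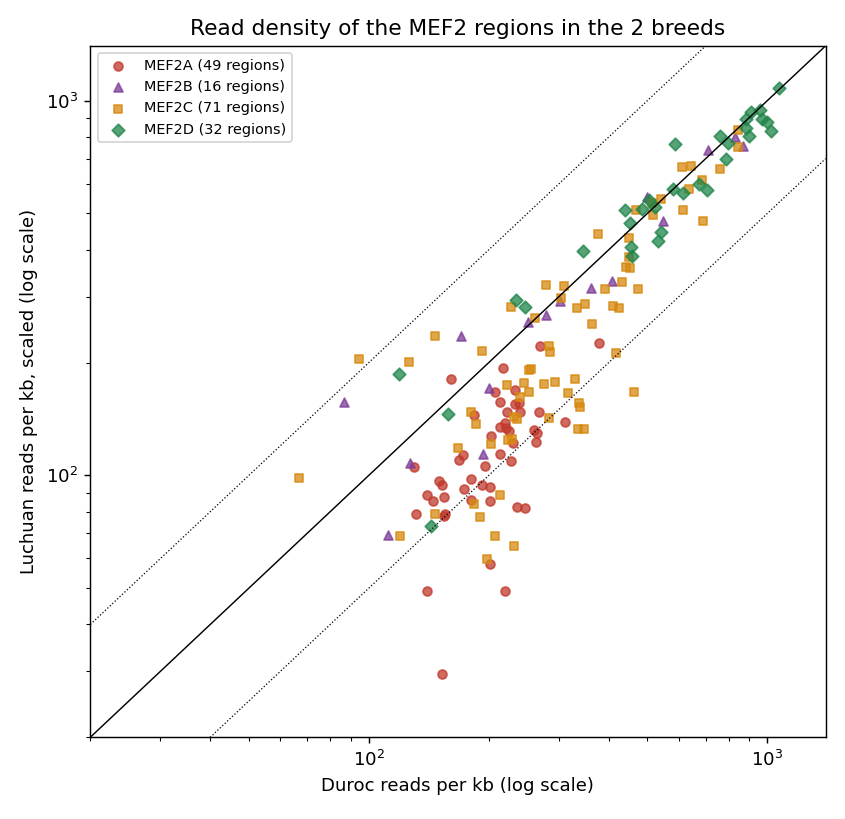
Scaled Luchuan reads per kb (y axis, log scale) against Duroc reads per kb (x axis, log scale) for each of the 168 regions, by gene. The solid line marks equality and dotted lines mark 2-fold. MEF2A circles cluster at low density below the line, with medians of 207 Duroc and 113 scaled Luchuan reads per kb, while MEF2D diamonds lie along the line, with medians of 584 and 573.

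MEF2C (gene ID 733590) covers chr2:96122407-96296927, a body of 174.5 kb, and again no other protein-coding gene lies within 50 kb. The median log2 ratio of its 71 regions was -0.39, with an interquartile range of -0.75 to -0.05, and 56 of 71 (78.9%) were below 0. The ratios were lower in the weaker regions. The 22 regions with 200 reads or more had a median of -0.18, the 37 with 50 to 199 reads a median of -0.40, and the 12 below 50 reads a median of -0.80.

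The strong regions of MEF2C were mixed. Of the 22 with 200 reads or more, 8 had an interval below 0 (36.4%, beside 23.6% of all regions of this depth), none had one above 0, and 2 were called higher in Duroc (9.09%, beside 3.13%). The region with the most reads, chr2:96150132-96150806, held 345 Luchuan and 570 Duroc reads, with a ratio of -0.16 (-0.36 to 0.03). The densest, chr2:96285381-96285860, held 271 and 405 reads, with a ratio of -0.02 (-0.25 to 0.21) and 1410 reads per kb. Both intervals included 0 and excluded a 2-fold difference in either direction. Other strong regions were lower in Luchuan, such as chr2:96194516-96195124 inside the body, singled out after its values were seen, with 115 and 258 reads and a ratio of -0.60 (-0.93 to -0.28).

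The ends of the MEF2C body gave different values. At the end of lower coordinate, chr2:96120530-96120817 held 26 Luchuan and 100 Duroc reads, a ratio of -1.34 (-2.06 to -0.75). The adjacent chr2:96121258-96121566 held 35 and 143 reads, a ratio of -1.44 (-2.05 to -0.93). Both were called higher in Duroc. Between them, chr2:96120824-96121122 held 43 and 125 reads and reached -0.96 (-1.51 to -0.47), just short of 2-fold. Just inside the body, chr2:96122709-96122858 had 18 and 44 reads and -0.68 (-1.61 to 0.09). All 4 regions at this end thus had fewer scaled Luchuan reads, and 3 of the 4 intervals excluded 0.

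At the MEF2C end of upper coordinate, chr2:96296623-96297117 held 221 Luchuan and 377 Duroc reads, a ratio of -0.21 (-0.46 to 0.03). The next region, chr2:96297221-96297791, held 198 and 352 reads, a ratio of -0.27 (-0.53 to -0.01). These regions were stronger than those at the opposite end, with 1210 and 963 reads per kb against 413 to 576, and their differences were smaller. The annotation used here gives no strand, so which end holds the transcription start was not determined, and exons, introns and untranslated regions were not separated.

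Away from the ends, 9 more MEF2C regions were called higher in Duroc. The 2 best covered were chr2:96136732-96137355, inside the body, with 66 Luchuan and 210 Duroc reads and -1.09 (-1.53 to -0.70), and chr2:96332342-96332905, beyond the end of upper coordinate, with 58 and 191 reads and -1.14 (-1.61 to -0.73). The lowest ratio among regions of 50 reads or more was -1.61 (-2.95 to -0.67), at chr2:96241138-96241359, with 9 and 44 reads. The 3 regions are all inside or beside the same gene, so they are not independent instances of a breed difference.

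The other 6 called regions inside MEF2C were small. The interval chr2:96158624-96158778 held 14 Luchuan and 52 Duroc reads, chr2:96207931-96208080 held 7 and 31, and chr2:96227418-96227567 held 9 and 32. The interval chr2:96245759-96245916 held 9 and 29 reads, chr2:96252581-96252740 held 7 and 37, and chr2:96270812-96270964 held 8 and 29. Their ratios were -1.26, -1.44, -1.16, -1.02, -1.69 and -1.18, in the same order. None of these 6 had more than 14 Luchuan reads.

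A few MEF2C regions went the other way. Far outside the body, chr2:96083972-96084130 had 22 Luchuan and 15 Duroc reads and a ratio of 1.08 (0.10 to 2.17), the only MEF2 region called higher in Luchuan. At chr2:96306027-96306251, with 36 and 33 reads, the ratio was 0.68 (-0.04 to 1.41), the highest among regions of 50 reads or more. Its interval included 0.

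MEF2D (gene ID 100156714) covers chr4:93581563-93616980, a body of 35.4 kb, and had the most open chromatin of the family. Its 32 regions had a median of 987 reads per kb of both breeds together, against 438 for MEF2C, 481 for MEF2B and 290 for MEF2A, and 383 over all regions. Of them, 15 stood in the top 10% of the genome by this density, beside 6 of MEF2C, 3 of MEF2B and 0 of MEF2A. The median log2 ratio was -0.03 with an interquartile range of -0.17 to 0.08, and 18 of 32 regions were below 0. No region was called in either direction. The regions held a median of 267 reads, the most of the 4 genes. Calls are few at such depth, since 3.13% of all regions of 200 reads or more were called higher in Duroc and 0.78% higher in Luchuan.

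The regions at the end of lower coordinate of MEF2D were near equality, and most of those at the other end were somewhat below it. The densest region of the family, chr4:93581063-93581727, overlaps the end of lower coordinate and held 485 Luchuan and 713 Duroc reads, 1800 reads per kb. It stood at the 99.8th percentile of all regions, and its ratio was 0.01 (-0.16 to 0.17). The 3 other regions within 2 kb of this end, chr4:93579586-93579826, chr4:93580758-93580988 and chr4:93582260-93582464, had ratios of -0.06, 0.08 and -0.17. At the end of upper coordinate the 4 regions, chr4:93614838-93614987, chr4:93617013-93617330, chr4:93617395-93617562 and chr4:93617912-93618236, had ratios of 0.07, -0.27, -0.23 and -0.33. All 8 intervals of single regions included 0. The 6 regions beyond the end of upper coordinate had a median of -0.25, with 5 below 0. Their summed reads gave -0.07 (-0.18 to 0.04).

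The MEF2D region with the most reads, chr4:93623680-93625025, lies 7.37 kb beyond the end of upper coordinate, and its 815 Luchuan and 1188 Duroc reads gave 0.02 (-0.11 to 0.15). Inside the body, chr4:93603676-93604067 held 204 and 230 reads and had the highest ratio of the well covered regions, 0.39 (0.11 to 0.67). Also inside the body, chr4:93593184-93593578 held 222 and 403 reads and had -0.30 (-0.54 to -0.06). The latter was singled out after its values were seen. These 2 regions were the MEF2D regions with an interval off 0, one in each direction and both under 2-fold. Of the 32 regions, 5 lay nearer to or inside the neighbouring IQGAP3, and without them the median was -0.06.

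MEF2B (gene ID 733675) covers chr2:58699173-58722554, a body of 23.4 kb among other genes. Of its 16 regions, 4 lay inside or nearest to MEF2B and 12 belonged by position to NCAN, NR2C2AP, RFXANK, TMEM161A or SLC25A42. The 4 had a median log2 ratio of 0.00, and the 12 had -0.18. At the end of lower coordinate, chr2:58698266-58698721 held 102 Luchuan and 186 Duroc reads (-0.30, -0.67 to 0.05) and chr2:58700523-58700724 held 40 and 61 (-0.04, -0.66 to 0.55). At the other end, chr2:58721767-58721997 held 40 and 58 (0.04, -0.59 to 0.63). None of these 3 regions was told apart from equality.

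The strongest regions in the MEF2B window, by reads and by reads per kb, stood at its neighbours. Inside the body, chr2:58702131-58702667 was also strong, with 201 Luchuan and 268 Duroc reads and 873 reads per kb. Its ratio was 0.15 (-0.12 to 0.42), and it was singled out after its values were seen. At RFXANK and the adjacent BORCS8, chr2:58683588-58684681 held 592 Luchuan and 909 Duroc reads, the most of the window, with a ratio of -0.06 (-0.21 to 0.09). At TMEM161A, chr2:58732307-58732738 was the densest with 1380 reads per kb, and its 221 and 375 reads gave -0.20 (-0.45 to 0.04). The highest ratio among the regions of 50 reads or more was 0.47 (-0.33 to 1.25), with 28 and 30 reads, at chr2:58742584-58742759. No interval of the 16 single regions excluded 0. On the side of lower coordinates all 6 regions were below 0, and their summed reads gave -0.12 (-0.24 to -0.01). The summed ratios were 0.10 (-0.13 to 0.32) inside the body and -0.06 (-0.22 to 0.09) on the other side.

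The deposited table marks each peak as common to both breeds or as specific to Duroc or to Luchuan. At MEF2A, 41 of 49 regions (83.7%) were Duroc-specific peaks, beside 31.8% of all regions, 5 were common and 3 were Luchuan-specific. At MEF2C, 35 of 71 (49.3%) were Duroc-specific, 30 common and 6 Luchuan-specific. The classes rest on the same reads as the ratio, so they are a description and no separate evidence. Over the genome, Duroc-specific regions had a median ratio of -0.36, common regions 0.00 and Luchuan-specific regions 0.77.

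Within each class the values of MEF2A were also lower than those of the genome. The 41 Duroc-specific regions of MEF2A had a median of -0.83, and the 35 of MEF2C had -0.70, beside -0.36 over all such regions. The 5 common regions of MEF2A had a median of -0.65 with a range of -0.74 to -0.27, and the 30 of MEF2C had -0.16. None of these common regions was called in either gene, beside 1.38% of all common regions in the Duroc direction. The 3 Luchuan-specific regions of MEF2A had a median of -0.27 and all lay below 0, beside 7.88% of such regions in the genome. For MEF2D, the 14 Duroc-specific regions had a median of -0.11 and the 17 common regions -0.01.

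**Figure D3:**
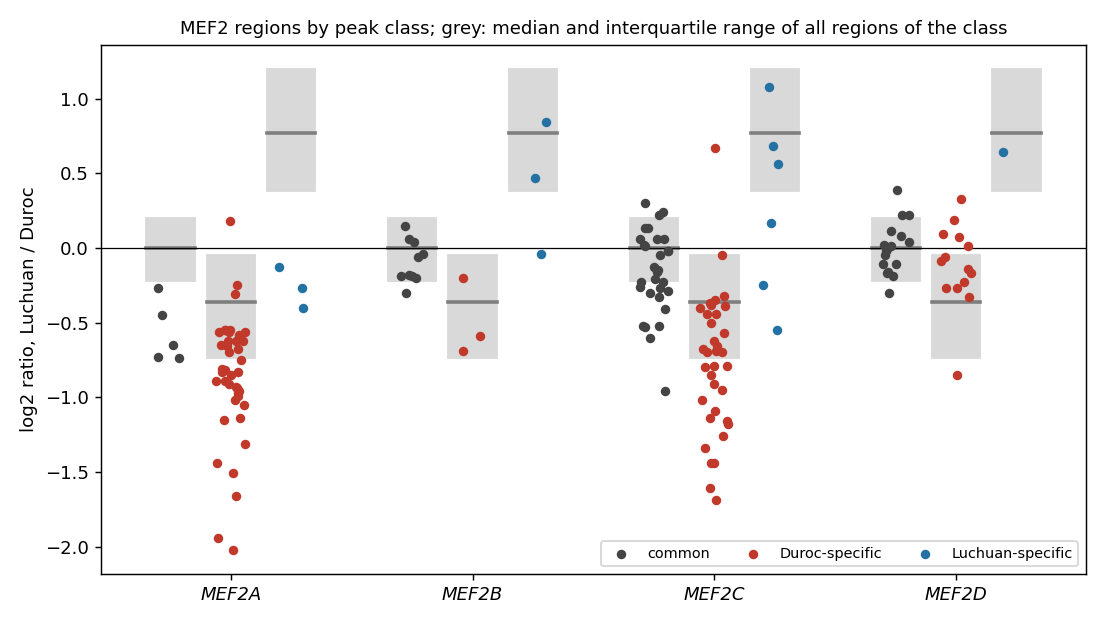
Log2 ratio of Luchuan over Duroc reads (y axis) of the regions of each MEF2 gene (x axis), in 3 columns per gene for common, Duroc-specific and Luchuan-specific peaks, each point being 1 region. Grey boxes and lines are the interquartile range and median of all regions of the class. The 41 Duroc-specific regions of MEF2A have a median of -0.83 and those of the genome -0.36.

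Read depth moved with the ratio. Among Duroc-specific regions of the genome the median was -0.27 below 50 reads, -0.40 from 50 to 199 and -0.75 from 200 reads. At MEF2A, regions below 50 reads had a median of -0.71 (24 regions), those with 50 to 199 had -0.82 (23 regions) and those from 200 had -0.60 (2 regions, both common). All regions of the genome, of every class, had medians of 0.28, -0.08 and -0.04 in these ranges. The values of MEF2A were thus below those of all regions in each range of depth, and the part of depth and peak class in the result was not tested. Across regions, the Spearman correlation of the ratio with reads per kb was 0.37 in the 71 regions of MEF2C, 0.18 in the 49 of MEF2A and 0.10 in the 16 of MEF2B. It was -0.20 in the 32 of MEF2D and -0.17 over all regions. These regions share 2 libraries and neighbouring sequence, so the correlations only describe them.

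The 4 genes were then placed among the 6585 protein-coding genes with at least 16 regions in the same window, whose windows partly overlap. The median log2 ratio of a gene's regions was -0.07 in the middle gene, and the middle 90% of genes lay between -0.38 and 0.27. For MEF2A, 18 genes (0.273%) had a lower median, and for MEF2C, 309 genes (4.69%). For MEF2B and MEF2D the shares were 40.6% and 59.1%. Ranked by the share of regions called higher in Duroc, 160 genes stood above MEF2A and 368 above MEF2C. By density of reads the order differed, since 6.73% of the genes had more reads per kb than MEF2D, and 91.3% had more than MEF2A.

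The low ratios were followed into the chromatin around MEF2A and MEF2C. At MEF2A, the median was -0.14 in the 15 regions between 50 and 150 kb from the body on the side of lower coordinates, and -0.29 in the 12 regions on the other side. Between 150 and 250 kb, the medians were 0.30 and 0.03. The gene and its flanks of 50 kb, with medians of -0.72 to -0.79, were therefore lower than the chromatin farther away. The 1 region at MEF2A closest beyond the window, at 55.8 kb, had 144 Luchuan and 227 Duroc reads and -0.09, and the farthest inside the window, at 43.1 kb, had 37 and 90 reads and -0.70. On the side of upper coordinates the first region beyond the window, at 58.4 kb, had 25 and 56 reads and -0.57, and the farthest inside, at 6.31 kb, had 15 and 45 reads and -0.96.

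The surroundings of MEF2C differed between its sides. On the side of upper coordinates the median stayed below 0, at -0.32 within 50 kb, -0.22 from 50 to 150 kb, -0.85 in the 11 regions from 150 to 250 kb and -0.41 from 250 to 500 kb. On the side of lower coordinates there were few regions, 1 from 50 to 150 kb and 0 from 150 to 250 kb. Around the limit of 50 kb, regions at 48.3 kb (125 Luchuan and 266 Duroc reads, -0.52) and at 50.5 kb (26 and 51 reads, -0.38) had similar ratios. On the side of lower coordinates, the first region beyond the limit, at 51.8 kb, had 289 and 425 reads and 0.01, and the medians were 0.07 from 250 to 500 kb (7 regions) and 1.09 from 500 to 1000 kb (5 regions). Low ratios beyond the window were thus seen on the side of upper coordinates only, out to 500 kb in these bins, and few regions lay on the other side.

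**Figure D4:**
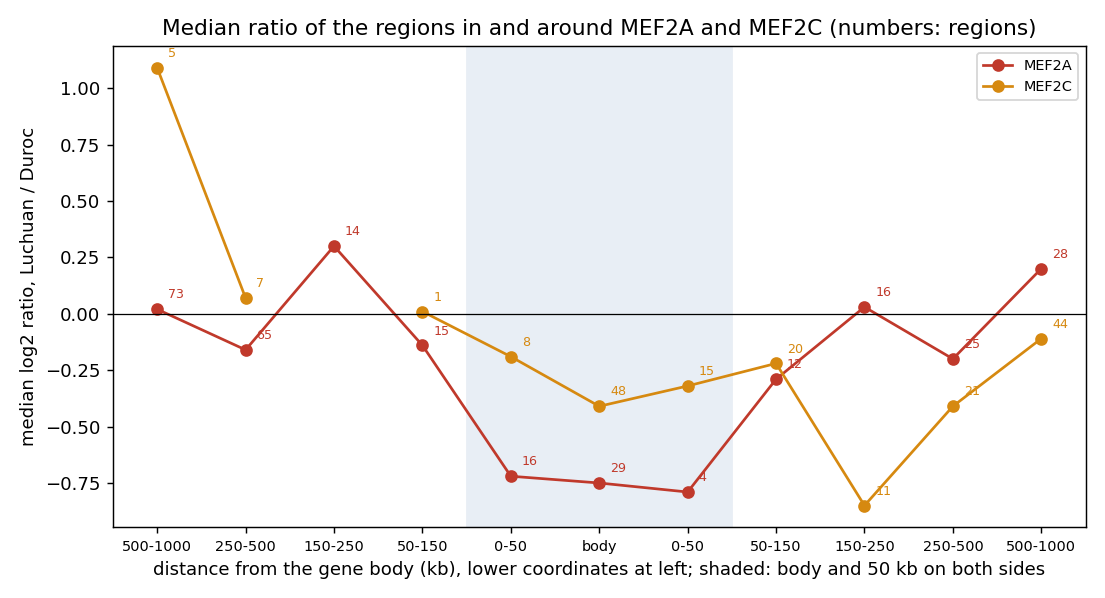
Median log2 ratio of Luchuan over Duroc reads (y axis) of the regions in the gene body and in bins of distance from it (x axis, kb, lower coordinates at left) for MEF2A and MEF2C; small numbers are regions per bin, and the shaded bins are the members. MEF2A lies between -0.72 and -0.79 in the shaded bins, and MEF2C reaches -0.85 at 150 to 250 kb on the side of upper coordinates.

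At MEF2B and MEF2D the values around the limit of the window varied. The first regions beyond it had ratios of -0.55 and -0.71 at MEF2B, and of -0.26 and 2.10 at MEF2D. The last had 28 Luchuan and 9 Duroc reads, at 62.7 kb. The members nearest to the limit had -0.18 and 0.84 at MEF2B and 0.64 and -0.09 at MEF2D.

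The genes that work with MEF2 were examined in the same windows, as counts beside the genome. Near the 5 repressors, which bind MEF2 and silence its targets, 6 of 198 regions were called higher in Duroc (3.03%) and 2 higher in Luchuan (1.01%), with a median ratio of -0.10. HDAC9, a class IIa deacetylase, held 3 of the 6 and 1 of the 2 among its 69 regions, the most regions of the 5 repressors. The other call in favour of Luchuan was in the window of CABIN1, an inhibitor of calcineurin, but not within 2 kb of that gene. All shares were below the 4.99% and 6.38% of the genome.

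Near the 16 partners and coactivators, 20 of 574 regions were called higher in Duroc (3.48%) and 11 higher in Luchuan (1.92%), with a median of -0.02. Both shares were below those of the genome, 4.99% and 6.38%. TCF12, an E protein that pairs with MyoD, held 9 of the 20 among its 85 regions. PPARGC1A, a coactivator of mitochondrial genes, held 9 of the 11 among its 67 regions, with a median of 0.37. Of these 9, 7 lay within 2 kb of the gene. The windows of the MyoD family had medians of 0.06 at MYOD1, 0.16 at MYF5, 0.08 at MYOG and 0.22 at MYF6. These window medians lay on the other side of 0 from MEF2A and MEF2C, but most of the regions were away from the genes. Within 2 kb, the medians were 0.09 at MYOD1 (5 regions), 0.5 at MYF5 (1), -0.09 at MYOG (1) and 0.1 at MYF6 (4). The windows of MYF5 and MYF6 share regions.

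Near 13 kinases and calcineurin subunits upstream of MEF2, 24 of 372 regions were called higher in Duroc (6.45%) and 10 higher in Luchuan (2.69%). The genome had 4.99% and 6.38%. PPP3R1, the regulatory subunit of calcineurin, held 8 of the 24 among 35 regions, with 3500 Luchuan and 6099 Duroc reads and a median of -0.54. CAMK4, a calmodulin-dependent kinase, held 3 of the 10 among 10 regions, with a median of 0.26. The list as a whole had a median of -0.02, so its genes lay on both sides of 0.

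Of 15 genes known as MEF2 targets in muscle, 13 were found by symbol, and MB and NR4A1 were not matched. Their 334 regions had a median ratio of -0.16, and 71.3% were below 0, beside 50.8% of all regions. Past the call, 11 were higher in Duroc (3.29%) and 3 higher in Luchuan (0.898%), below the 4.99% and 6.38% of the genome. At any fold, 27.5% had an interval below 0 and 3.59% above it, beside 15.7% and 13.4% over the genome. The target regions were deep, with a median of 240 reads. All regions of 200 reads or more had shares of 23.6% and 14.5%. CKM, which encodes muscle creatine kinase, held 4 of the 11 among 18 regions, with 3809 Luchuan and 7653 Duroc reads and a median of -0.54. Of these 4 calls, 2 lay within 2 kb of CKM. The window of MYOM1, a protein of the M-band, held 2 of the 3 among 68 regions, with a median of -0.05. None of its calls in favour of Luchuan lay within 2 kb of the gene. Most target regions thus held more Duroc reads after scaling, and few of them by 2-fold or more.

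**Figure D5:**
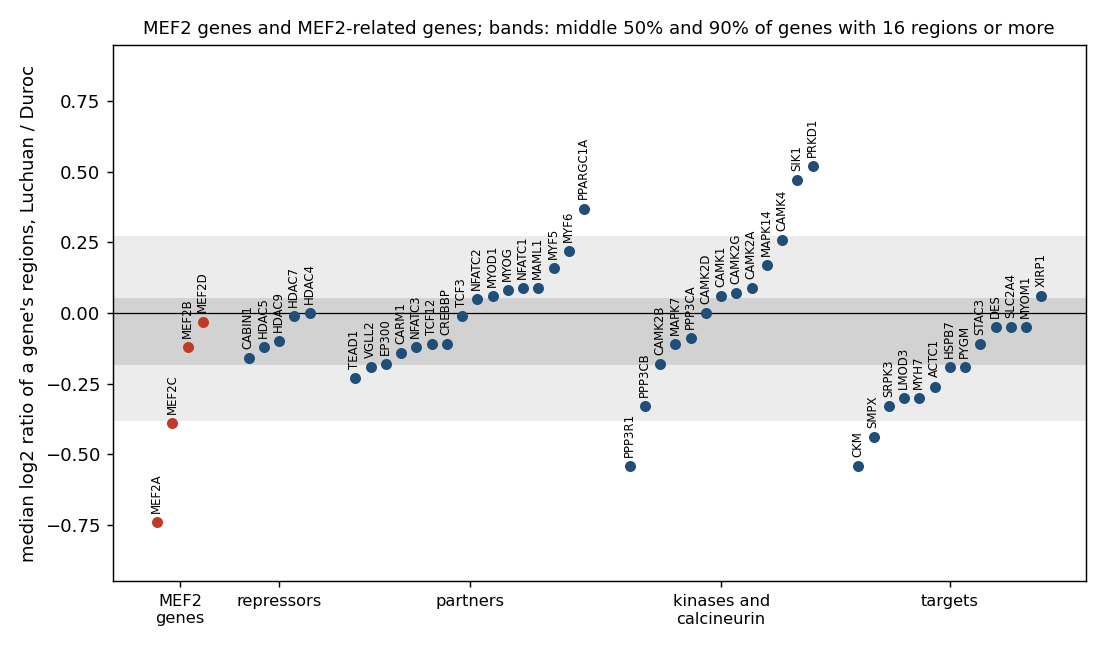
Median log2 ratio of Luchuan over Duroc reads (y axis) of the regions within 50 kb of each gene, for the MEF2 genes and the listed repressors, partners, kinases with calcineurin, and targets (x axis). Bands are the middle 50% and 90% of the 6585 genes with at least 16 regions, a number that some listed genes do not reach. MEF2A at -0.74 lies below the wider band and below every listed gene.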

How the data were processed

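ATAC-seq of longissimus dorsi from 3 Luchuan and 3 Duroc boars was used, and RNA-seq was left out. Per the labels, Trimmomatic (version 0.36) cleaned the reads, Bowtie2 placed them on Sscrofa11.1 and MACS2 called the peaks. Removal of duplicates and the shift of reads for the transposase are not given in the sources used here. The authors deposited raw read counts, 1 per peak interval and breed, which were read as pooled over boars because the columns name no replicate. Their rescaled fold change, signal and P columns, made for the comparison of breeds, were not used. Sscrofa11.1 was assembled from a Duroc pig, and mapping by breed was not analysed here.

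Common intervals that overlapped or touched were joined, keeping the longest, which turned 217213 intervals (239 near MEF2 genes) into 140081 regions. Starts were read as counted from 0 and are given from 1. Gene positions came from RefSeq, which has no strand here. The log2 ratio was shifted by 0.56 (a factor of 1.48). The text names regions at or within 2 kb of gene ends, those with the most reads or reads per kb, all called regions, the lowest and highest ratio from 50 reads, and, of each list, the genes with the most calls. Members and lists were chosen with earlier results of these data known. Motifs and sequences were not examined, and 1 listed marker is not reported here. Counts were analysed with pandas 2.3.3 and NumPy 2.4.6 in Python 3.11.15, intervals came from SciPy 1.17.1, and plots from Matplotlib 3.10.9.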

Additional observations from a re-analysis of the deposited data

How the results depend on the processing

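No paired analysis was possible because the table has 1 count per breed and no replicate, and no replicate could be left out for the same reason. Setting total reads equal, centring by a straight line in the signal or adding 0.5 in place of 1 left all 48 named regions within their intervals, and 48 of 49 MEF2A regions stayed below 0. Without scaling, which leaves the deeper Duroc libraries uncorrected, the summed ratios were -1.36 at MEF2A, -0.63 at MEF2B, -0.84 at MEF2C and -0.61 at MEF2D. The medians of MEF2B and MEF2D became -0.68 and -0.60, and chr4:93603676-93604067 turned to -0.17. Calls higher in Duroc, 21 in the report, numbered 77 without scaling, 11 among regions of at least 50 reads, 41 at 1.5-fold and 5 at 3-fold. The single call higher in Luchuan became 0 without scaling, from 50 reads, within 2 kb of the genes and at 3-fold. With every deposited interval counted, overlapping ones included, the summed ratio of MEF2C was -0.21. Depth limits the regions below 50 reads, 24 of 49 at MEF2A.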
